A study of Mus musculus with 32 samples.

Results

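Itln1, Fut2 and Spdef encode a secreted mucosal lectin, a fucosyltransferase of mucosal surfaces and a transcription factor of goblet cells. They are 3 of the 26305 genes that carry an Ensembl identifier in the deposited table of mouse lung transcripts, and all 3 are among the 2749 genes whose level averaged 0.1 FPKM or more over all mice. Itln1 met this filter through the rosoxacin group described next, with a mean of 0.133 FPKM over all mice and 0.0408 FPKM over the 12 mice outside that group. They were chosen by name with the values of these libraries known. Itln1 is among the genes that passed the test for WTCPM+rosoxacin against WTCPM, so the levels and changes of the 3 genes are given below as a description, without a test of their own.

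The study compared lungs of 16 wild-type male C57BL/6J mice, 6 to 8 weeks old, in 4 groups of 4. In the first group WTCPM, the particulate matter of the World Trade Center dust from Ground Zero, was given through the nose and rosoxacin, a quinolone antibiotic, was injected into the peritoneum at 5 mg/kg (rosoxacin mice). The second group received the same dust and 0.1 mg/kg dexamethasone, a synthetic glucocorticoid, by the same route of injection (dexamethasone mice). The third group received the dust alone (WTCPM mice), so the 3 exposed groups share it, and the fourth was healthy and received neither dust nor drug (control mice). The labels name no vehicle, no dust dose and no time of sampling. The mice are separate animals, and each was sequenced on 2 lanes, which were averaged, so that n counts mice.

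ITLN1, or intelectin-1, is a lectin that epithelial cells release and that binds sugars of microbial surfaces. FUT2 adds fucose in an alpha-1,2 linkage to the ends of glycans on mucins and on mucosal cells, which makes the H antigen. SPDEF is an ETS family transcription factor that drives the differentiation of goblet cells, the mucus-secreting cells of airway and gut, and goblet cells are a known site of expression for all these genes. Healthy airways of laboratory mice hold few goblet cells, and their number is known to increase in allergic inflammation.

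The promoter sequences of Itln1 and Spdef are shown because SPDEF is itself a DNA-binding factor of the ETS family, whose members bind short cores of GGAA or GGAT. Each line holds the 250 bases before the transcription start from RefSeq, build GRCm38.p6, read 5′ to 3′ on the minus strand on which both genes lie, at chr1:171535295-171535544 for Itln1 and chr17:27728952-27729201 for Spdef. Capitals mark GGAA and GGAT on the strand shown, and their complements TTCC and ATCC where the core lies on the other strand.
Itln1: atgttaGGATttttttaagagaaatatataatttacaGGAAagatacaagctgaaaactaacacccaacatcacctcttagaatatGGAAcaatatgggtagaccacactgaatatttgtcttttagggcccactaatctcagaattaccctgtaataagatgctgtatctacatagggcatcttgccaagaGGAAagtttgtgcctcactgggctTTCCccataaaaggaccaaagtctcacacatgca
Spdef: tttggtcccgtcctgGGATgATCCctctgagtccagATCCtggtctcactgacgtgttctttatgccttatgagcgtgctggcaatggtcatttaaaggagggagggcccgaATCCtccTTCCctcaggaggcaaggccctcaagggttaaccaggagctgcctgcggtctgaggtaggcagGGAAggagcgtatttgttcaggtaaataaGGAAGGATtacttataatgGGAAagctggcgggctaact
The Itln1 window holds 1 GGAT, starting 244 bases before the transcription start, and 4 GGAA cores, the nearest of them 34 bases before it. The Spdef window holds 5 GGAT cores, between 235 and 35 bases before the start, and 4 GGAA cores, between 131 and 20 bases before it. The core GGAA at 39 and the core GGAT at 35 directly follow each other in Spdef. These letters are common, since 93.4% of the 32851 RefSeq windows of this length hold a GGAA and 74.1% a GGAT on either strand. The palindrome TTCNNNGAA, bound by STAT factors, occurs in 7.02% of the windows, the STAT palindrome with the next longer spacer in 5.85%, and ACANNNTGT, the core of the glucocorticoid receptor palindrome, in 5.84%. None of these 3 patterns is in the windows of Itln1 or Spdef.

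Itln1 was read in every rosoxacin mouse and in few of the others. Its level was 0.331, 0.157, 0.525 and 0.633 FPKM in rosoxacin mice 1 to 4. In dexamethasone mice it was 0.273 and 0.159 FPKM in mice 2 and 3 and listed at 0 in mice 1 and 4. In WTCPM mice it was 0.0584 FPKM in mouse 4 and listed at 0 in mice 1, 2 and 3, and it was listed at 0 in all 4 control mice. Every rosoxacin mouse lay above every WTCPM and control mouse, while the ranges of rosoxacin and dexamethasone mice overlapped, because dexamethasone mice 2 and 3 lay above rosoxacin mouse 2. The ranges of dexamethasone and WTCPM mice overlapped too.

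These levels rest on few fragments. FPKM divides the fragments of a transcript by its length and by the mapped fragments of its library. Depth was estimated by taking the most frequent value of FPKM times length within a preset low range as a single fragment. This put it at 8720000 to 13990000 fragments per lane, to the nearest 10000. The estimate rests on that assumption, and the preset range bounds it. The fragments of a gene were then estimated with the length of its longest annotated transcript (1141 bases for Itln1), whichever transcript held its FPKM. On that scale Itln1 was covered by about 7.80, 3.45, 10.9 and 14.4 fragments over the 2 lanes of rosoxacin mice 1 to 4. The 2 dexamethasone mice with a value had about 5.46 and 4.86 fragments, and WTCPM mouse 4 about 1.44. Summed over a group, this gave about 36.6 fragments in rosoxacin mice, 10.3 in dexamethasone mice, 1.44 in WTCPM mice and none in control mice. The estimates need not be whole, and the length used may differ from that of the transcript read. In a lane, 25.5 to 33.0% of low values fell on whole reads within 0.02 of a read, so the counts themselves could not be recovered. On the same scale, a single fragment in a lane was worth 0.0627 to 0.101 FPKM for Itln1 over all lanes. If the scale holds, lower levels were not detectable in a lane. A level listed at 0 says only that no fragment was assigned to the gene under its own identifier.

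The estimated depth was 9120000 to 10370000 fragments per lane in rosoxacin mice, 8720000 to 13460000 in dexamethasone mice, 9330000 to 10810000 in WTCPM mice and 9610000 to 13990000 in control mice. Within the WTCPM group, mouse 4, which alone had a value, also had the deepest lanes, while the deepest lanes of all belonged to control mice with Itln1 listed at 0. The part of depth in these values was not tested. Counted by lane, with 2 lanes per mouse, Itln1 was above 0 in 7 of 8 lanes of rosoxacin mice and 3 of 8 of dexamethasone mice. It was above 0 in 1 of 8 lanes of WTCPM mice and 0 of 8 of control mice. In rosoxacin mouse 2 the value came from lane 2 alone (0.313 FPKM, with lane 1 listed at 0), and in dexamethasone mouse 2 likewise (0.545 FPKM in lane 2). Between the lanes of the 4 mice with a value in each, the larger lane was 1.19 to 1.48 times the smaller.

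All Itln1 signal came from 1 of its 2 listed transcripts. The gene (ENSMUSG00000038209.12, protein coding) lies on chromosome 1 from 171518122 to 171535294 on the minus strand of mm10, and no other annotated gene overlaps it. Of the 1092 windows of 50 bases in its longest transcript, which spans 1141 bases, 11 (1.01%) occur also in Gm9765. The remaining windows were found in no other annotated transcript.

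**Figure D1:**
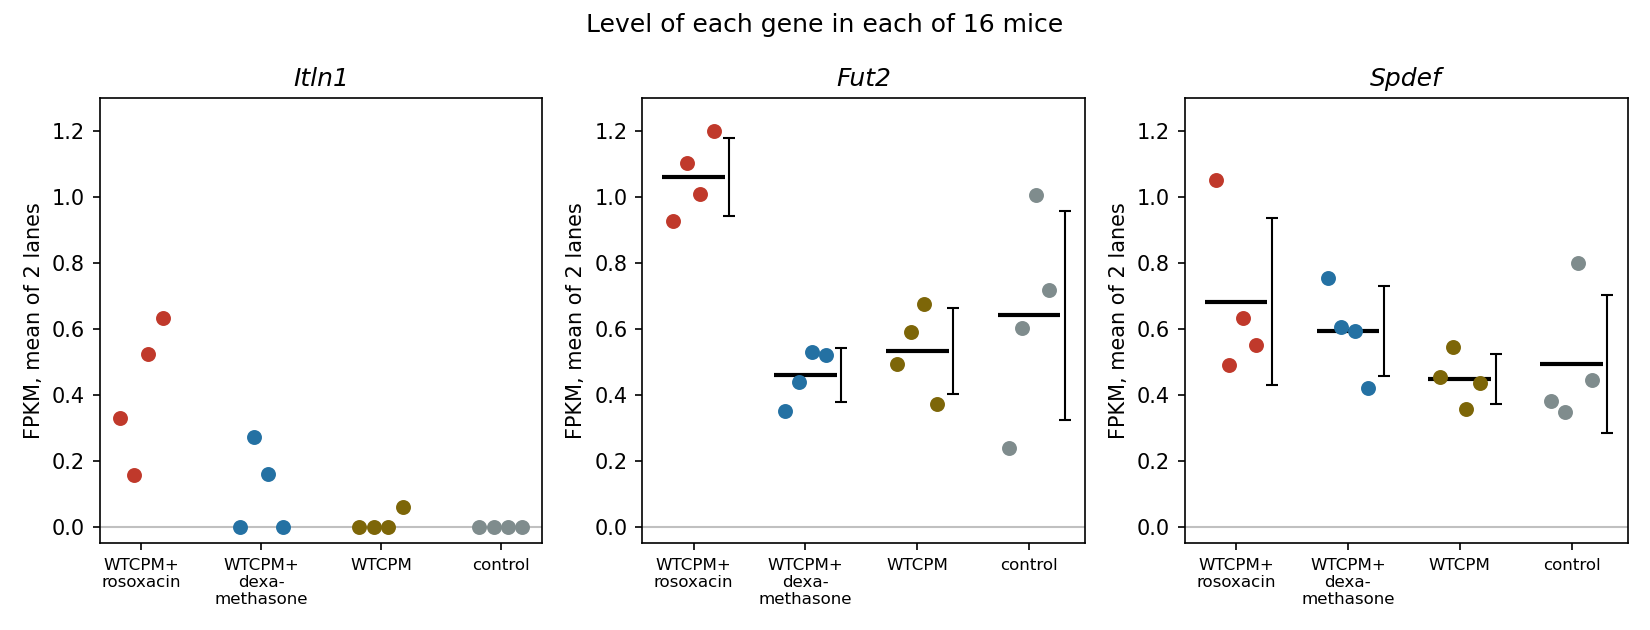
Level of Itln1, Fut2 and Spdef in FPKM, averaged over 2 lanes, with 1 point per mouse for rosoxacin, dexamethasone, WTCPM and control mice from left to right. For Fut2 and Spdef the line is the group mean and the bar the SD (n = 4). For Itln1, which is listed at 0 in 9 mice, no mean is drawn. The Itln1 points of rosoxacin mice lie at 0.157 to 0.633 and those of control mice at 0, and for Fut2 the rosoxacin mice lie above all dexamethasone and WTCPM mice.

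Fut2 had its highest levels in rosoxacin mice, at 0.926, 1.10, 1.01 and 1.20 FPKM in mice 1 to 4. It had 0.352, 0.439, 0.529 and 0.520 FPKM in dexamethasone mice. WTCPM mice held 0.495, 0.590, 0.675 and 0.371 FPKM. The rosoxacin mice lay above every mouse of both these groups, while dexamethasone and WTCPM mice overlapped. Control mice spread more widely, at 0.238, 0.602, 1.01 and 0.717 FPKM, so that control mouse 3 lay inside the range of the rosoxacin mice and control mouse 1 below all other mice.

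The group means of Fut2 were 1.06 ± 0.118 FPKM in rosoxacin mice, 0.460 ± 0.0829 in dexamethasone mice, 0.533 ± 0.131 in WTCPM mice and 0.641 ± 0.318 in control mice (SD, n = 4 each). The mean of rosoxacin mice was 1.99 times that of WTCPM mice, and the mean of dexamethasone mice 0.864 times. In the order rosoxacin, control, WTCPM, dexamethasone, control, WTCPM and dexamethasone mice did not differ beyond their spread. In bulk lung RNA, fewer cells that express a gene and less of its RNA per cell cannot be told apart, which holds for each value given here.

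The lanes repeated the higher Fut2 levels of rosoxacin mice against WTCPM mice. Every lane held Fut2, and the larger lane of a mouse exceeded the smaller by a factor of 1.05 to 1.62 (median 1.18). About 54.5 to 70.8 fragments lay behind the value of a rosoxacin mouse against 23.6 to 37.3 in a WTCPM mouse. In each lane taken alone, every rosoxacin mouse lay above every WTCPM mouse. The largest gap between lanes in absolute terms was that of control mouse 3, at 1.22 FPKM in lane 1 and 0.789 FPKM in lane 2. Every control mouse had its higher Fut2 value in lane 1. The log2 change for WTCPM against control was -0.37 with lane 1 alone and 0.14 with lane 2 alone.

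Fut2 (ENSMUSG00000055978.5, protein coding) spans 45648591 to 45666394 on the minus strand of chromosome 7 in mm10, with 87.8% of its FPKM in 1 of 5 listed transcripts. Its neighbour Sec1, a related alpha-1,2-fucosyltransferase gene on the same strand, lies 11292 bases away and is itself overlapped by Ntn5 on the other strand, and 159 of the 2906 windows of 50 bases in the longest Fut2 transcript (5.47%) occur also in Sec1. The sources used here do not say how reads from this shared stretch were divided, and the split between these 2 genes is uncertain to that extent. Sec1 had 0.251, 0.405, 0.560 and 0.577 FPKM in rosoxacin mice, 0.694, 0.834, 0.700 and 0.595 in dexamethasone mice, 0.585, 0.748, 0.684 and 0.429 in WTCPM mice and 0.868, 0.544, 0.669 and 0.532 in control mice. Its rosoxacin mice thus lay below the median of each other group, while those of Fut2 lay above every dexamethasone and WTCPM mouse and 3 of 4 control mice. Fut2 was 1.80 to 3.69 times as high as Sec1 in rosoxacin mice, 0.507 to 0.874 times in dexamethasone mice, 0.789 to 0.987 times in WTCPM mice and 0.274 to 1.50 times in control mice. This ratio was looked at after the values of both genes had been seen, and it was not tested.

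**Figure D2:**
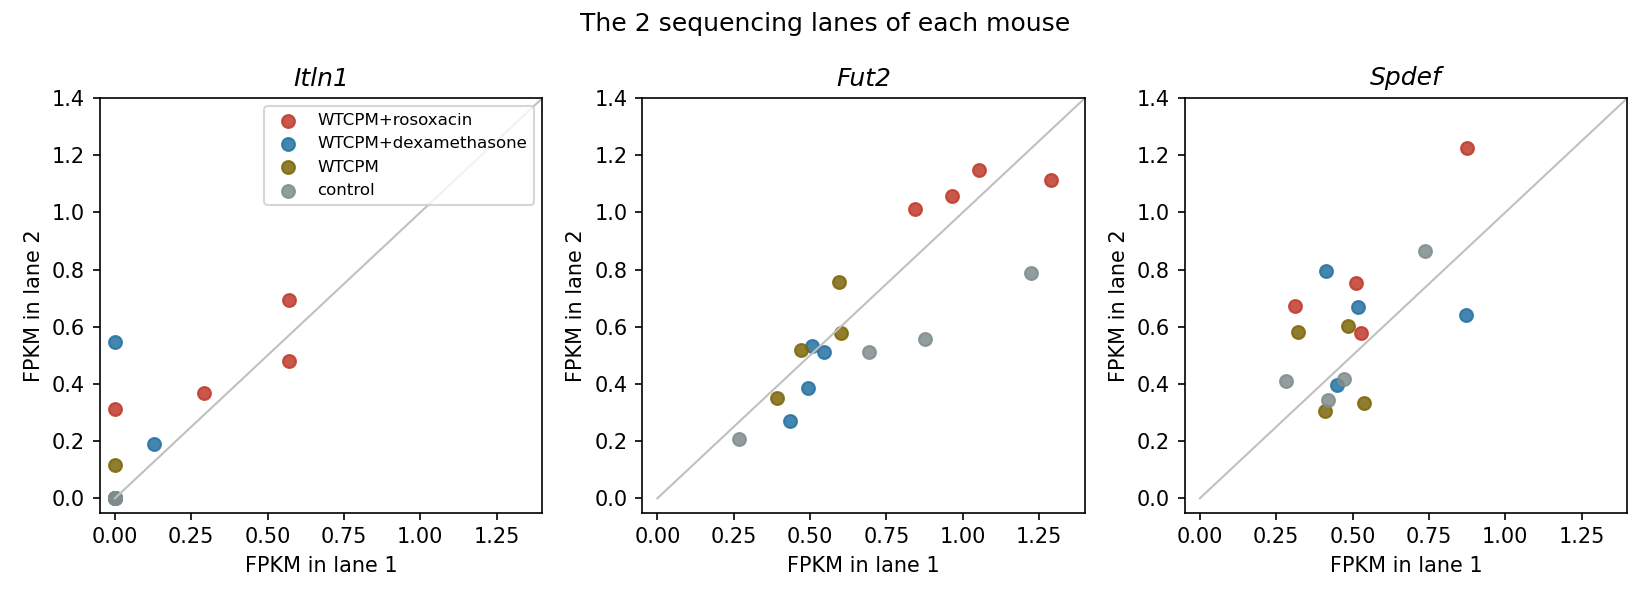
FPKM in lane 1 (horizontal axis) and lane 2 (vertical axis) for each mouse, with 1 panel per gene, points coloured by group and the line of equal values in grey. For Fut2 the rosoxacin points lie apart from dexamethasone and WTCPM points in each lane, and for Itln1 rosoxacin mouse 2, dexamethasone mouse 2 and WTCPM mouse 4 have a value in lane 2 alone.

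Spdef did not separate the groups. Its levels were 1.05, 0.492, 0.633 and 0.552 FPKM in rosoxacin mice and 0.755, 0.605, 0.592 and 0.422 FPKM in dexamethasone mice. They were 0.453, 0.544, 0.358 and 0.435 FPKM in WTCPM mice and 0.381, 0.347, 0.800 and 0.445 FPKM in control mice. The ranges of all 4 groups overlapped, and the 2 highest mice were rosoxacin mouse 1 and control mouse 3. The means were 0.682 ± 0.253 FPKM in rosoxacin mice, 0.593 ± 0.136 in dexamethasone mice, 0.447 ± 0.0765 in WTCPM mice and 0.493 ± 0.209 in control mice (SD, n = 4 each). None of these neighbours in the order of means differed beyond its spread. The mean of rosoxacin mice was 1.52 times and that of dexamethasone mice 1.33 times the mean of WTCPM mice.

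The value of rosoxacin mouse 1 carries much of the Spdef mean. Without it the log2 change of rosoxacin against WTCPM mice was 0.27, against 0.48 with all mice. The same mouse had the highest total of FPKM, 1329954, in a group whose totals ran from 924277, while totals ran from 763725 to 861652 in dexamethasone mice, 742168 to 803130 in WTCPM mice and 704683 to 1099603 in control mice. After each mouse was rescaled to the same total, the log2 change of Spdef was 0.0902. That of Fut2 was then 0.50 and that of Itln1 1.99. After this rescaling the median was -0.44 over the 3064 genes with an Ensembl identifier that then met the filter. It was -0.16 over 2749 genes as deposited, so the 2 medians rest on different sets of genes. Relative to the median after rescaling, the changes were 0.53 for Spdef, 0.94 for Fut2 and 2.42 for Itln1.

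Spdef (ENSMUSG00000024215.13, protein coding) spans 27714352 to 27728955 on the minus strand of chromosome 17 in mm10, overlaps no other annotated gene, and has 97.7% of its FPKM in 1 of 5 listed transcripts. Its longest transcript of 1921 bases shares no 50-base window with another annotated transcript. Its lanes differed more than those of Fut2, by a factor of 1.10 to 2.17 (median 1.35), with about 12.9 to 42.9 fragments behind the value of a mouse.

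The changes of the 3 genes were set against those of all 2749 genes in a limma fit of log2(FPKM + 0.1), in which 15 genes (0.546%) passed an adjusted p of 0.05 for rosoxacin against WTCPM, 3 of them higher (0.109%) and 12 lower (0.437%). At an unadjusted p below 0.05 there were 431 genes (15.7%). Of the 3 genes Itln1 passed, but it was chosen from this contrast and entered the test through its rosoxacin values, so nothing is read from its pass. Its log2 change was 2.08 (SE 0.44). The added constant sets the size of this value, since Itln1 is listed at 0 in most WTCPM mice, and with a constant of 1 it was 0.46. Fut2 had a log2 change of 0.89 (SE 0.28) and Spdef of 0.48 (SE 0.25). Neither passed. The median of all 2749 genes was -0.16 in this comparison, and relative to it the changes were 2.24 for Itln1, 1.05 for Fut2 and 0.63 for Spdef. Itln1 passed in 14 of the 27 settings that gave it a value. It was lost, among others, when any 1 WTCPM mouse, rosoxacin mouse 1, 3 or 4, or control mouse 2 or 3 was left out.

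For dexamethasone against WTCPM no gene passed (0 of 2749, 0%), and 148 genes (5.38%) had an unadjusted p below 0.05 in the same limma fit. The log2 change was 0.65 (SE 0.44) for Itln1, -0.16 (SE 0.28) for Fut2 and 0.33 (SE 0.25) for Spdef, against a median of 0.00 over all genes. Rosoxacin and dexamethasone mice are set against the same WTCPM mice in these 2 comparisons. The 2 drugs were given at different doses, and no test between them was made.

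For WTCPM against control no gene passed either (0 of 2749, 0%), with 141 genes (5.13%) at an unadjusted p below 0.05. The log2 change was 0.17 (SE 0.44) for Itln1, which rests on WTCPM mouse 4 and was 0.00 without it, -0.13 (SE 0.28) for Fut2 and -0.07 (SE 0.25) for Spdef. The median of all genes was 0.03. All these changes are smaller than their standard errors, and those of Fut2 and Spdef took the other sign in some alternatives.

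**Figure D3:**
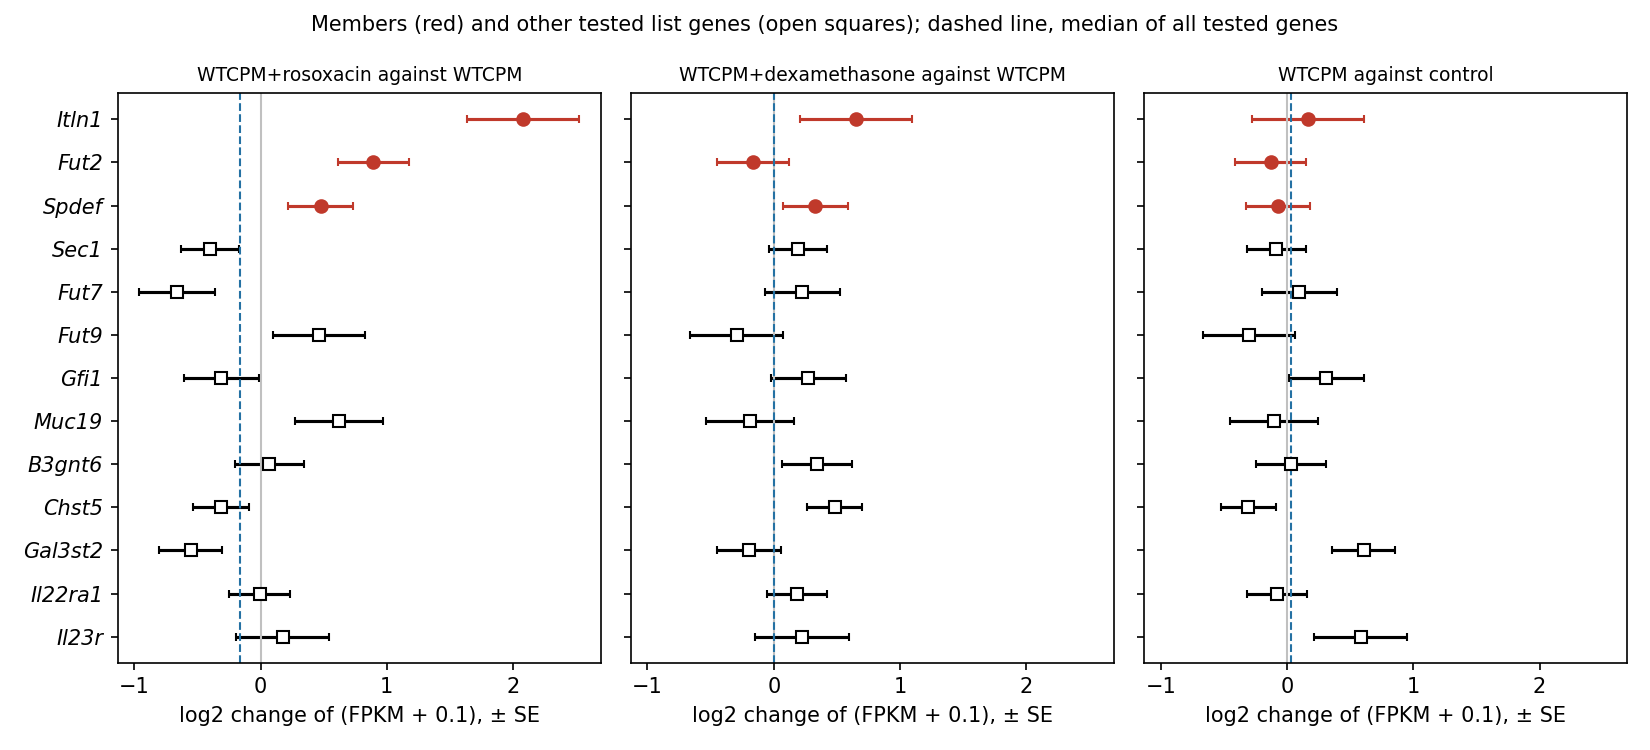
Log2 change of (FPKM + 0.1) with its SE for Itln1, Fut2 and Spdef (filled circles) and the 10 other tested genes of the pathway lists (open squares), in the comparisons of rosoxacin against WTCPM, dexamethasone against WTCPM and WTCPM against control. The dashed line is the median of all 2749 genes, at -0.16, 0.00 and 0.03. In the first panel Itln1 lies at 2.08, Fut2 at 0.89 and Spdef at 0.48, with the other genes between -0.66 and 0.62.

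The wider pathway was read from 8 lists of lectins, fucosyltransferases, fucose supply, goblet cell transcription factors, mucins and other goblet cell products, mucin glycosylation, type 2 cytokine signalling and the IL-22, IL-17 and EGFR axis. Of the 191 symbols in them, 53 besides the 3 members had a value under their own identifier, 24 of these were listed at 0 in all mice, and 10 were tested. None of the 10 passed in any comparison, with a lowest adjusted p from limma of 0.286 for rosoxacin, 0.866 for dexamethasone and 0.818 for dust. Their median log2 change was -0.16 for rosoxacin against WTCPM, the same as over all genes, with 4 of 10 positive. It was 0.21 for dexamethasone against WTCPM with 7 of 10 positive, and -0.02 for WTCPM against control with 5 of 10 positive.

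Among the fucosyltransferases, Sec1, Fut7 and Fut9 were tested with Fut2. Fut7, which makes the sialyl Lewis x glycans that bind selectins, had 0.0913, 0.261, 0.346 and 0.124 FPKM in rosoxacin mice, 0.487, 0.443, 0.345 and 0.468 in dexamethasone mice, 0.225, 0.349, 0.432 and 0.452 in WTCPM mice and 0.620, 0.268, 0.243 and 0.261 in control mice. Its log2 change for rosoxacin against WTCPM was -0.66 (SE 0.30) and that of Sec1 -0.40 (SE 0.23). The fourth gene, Fut9, which builds Lewis x, had 0.46 (SE 0.37). The family thus held changes of either sign, and none of them passed. Fut1, the other alpha-1,2-fucosyltransferase gene, was above 0 in 2 rosoxacin mice, 1 dexamethasone mouse, 0 WTCPM mice and 2 control mice, at no more than 0.0643 FPKM.

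Among the lectins, 11 genes besides Itln1 had their own identifier and none was tested. Reg3b, Reg3a and Reg4, lectins and related proteins of the gut epithelium, were among the 7 listed at 0 in all mice. The 12 symbols listed for fucose supply and removal have no value under their own identifier.

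Of the other goblet cell transcription factors, Gfi1 was tested and had a log2 change of -0.31 (SE 0.30) for rosoxacin against WTCPM. Atoh1, the factor at the top of the secretory lineage in the gut, was listed at 0 in all mice. Of the mucins, Muc19, a gel-forming mucin of salivary glands, had 0.108, 0.199, 0.308 and 0.302 FPKM in rosoxacin mice, 0.0503, 0.0888, 0.0631 and 0.132 in dexamethasone mice, 0.183, 0.134, 0.0414 and 0.0939 in WTCPM mice and 0.00939, 0.186, 0.140 and 0.220 in control mice. Its log2 change for rosoxacin against WTCPM was 0.62 (SE 0.35), and the groups overlapped. Muc5ac, Muc5b, Agr2 and Clca1, the products most used to mark airway goblet cells, have no value under their own identifier, and Tff1 and Tff3 were listed at 0 in all mice. The presence of goblet cells behind these 3 genes therefore could not be checked.

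Of the genes of mucin glycosylation, the sulfotransferase genes Chst5 and Gal3st2 had log2 changes of -0.31 (SE 0.22) and -0.55 (SE 0.25) for rosoxacin against WTCPM, and neither passed. Il22ra1, the receptor chain through which IL-22 acts on epithelium, averaged 0.322 ± 0.130 FPKM in rosoxacin mice, 0.368 ± 0.0574 in dexamethasone mice, 0.313 ± 0.0534 in WTCPM mice and 0.344 ± 0.107 in control mice (SD, n = 4 each). Il23r, a receptor chain of lymphocytes that make IL-17 and IL-22, had a log2 change of 0.18 (SE 0.37). Il22, Il17a and Il17f themselves were listed at 0 in all mice.

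The tissue label was held against markers of other cells. Of 96 marker symbols in 11 lists, 25 had their own identifier and 9 were tested, and none passed in any comparison. The markers of club, alveolar type 1, alveolar type 2 and mesothelial cells have no value under their own identifier, so lung epithelium could not be checked by them. The tested ones were Mcidas, Trp63, Ngfr, Lep, Hcar1, Resp18, Scg5, Cxcr2 and Xcr1, whose log2 changes for rosoxacin against WTCPM ran from -0.72 for Scg5 to 1.25 for Lep. In none of the 7 lists with a value did the marker sums of rosoxacin mice separate from those of WTCPM mice. Some tested markers taken singly did. Lep lay higher, at 0.0636 to 0.311 FPKM in rosoxacin mice against 0 to 0.0471 in WTCPM mice. Cxcr2 lay higher too, at 0.651 to 1.37 against 0.366 to 0.599 FPKM. Xcr1 lay lower, at 0.301 to 0.469 against 0.526 to 0.637 FPKM. The other tested markers overlapped between these groups. Ciliated cells were represented by Mcidas alone, at 0.134 to 1.14 FPKM in rosoxacin mice, 0.317 to 0.442 in dexamethasone mice, 0.222 to 0.568 in WTCPM mice and 0.0939 to 0.378 in control mice. The 3 basal cell markers summed to 0.162 to 0.323 FPKM in rosoxacin mice, 0.138 to 0.367 in dexamethasone mice, 0.164 to 0.383 in WTCPM mice and 0.212 to 0.768 in control mice. The 6 neuroendocrine markers had a median sum of 0.471 FPKM in rosoxacin mice, 0.761 in dexamethasone mice, 0.506 in WTCPM mice and 0.364 in control mice. Markers of squamous epithelium and thymus reached at most 0.197 and 0.119 FPKM in sum in any mouse, with Sprr1b, Sprr3, Dsg3 and Foxn1 listed at 0 throughout. The 5 leukocyte markers summed to 1.03 to 1.71 FPKM in rosoxacin mice, 1.23 to 2.12 in dexamethasone mice, 0.892 to 1.24 in WTCPM mice and 0.739 to 1.28 in control mice. The 2 adipocyte markers, Lep and Hcar1, summed to 0.127 to 0.530 FPKM in rosoxacin mice, 0.231 to 0.488 in dexamethasone mice, 0.0953 to 0.137 in WTCPM mice and 0.366 to 1.90 in control mice. The adipocyte sums of WTCPM mice thus lay below those of every dexamethasone and control mouse, and overlapped rosoxacin mice only narrowly. The part of these cells in the levels of the 3 genes was not tested.

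The genes most like each member over the 16 mice were found by the Pearson correlation of log2(FPKM + 0.1) among 960 named genes. The 16 points share their group, so each r is given beside the one left after every group was centred on its mean, and all are descriptions. For Fut2 the closest were Ucn2 (r = 0.89, 0.76 centred), which encodes the peptide urocortin-2, Zfp618 (0.85, 0.65 centred), Hipk4 (0.83, 0.61 centred), Acr (0.81, 0.74 centred) and Kif5a (0.80, 0.71 centred). For Spdef they were Sox21 (r = 0.73, 0.83 centred), a transcription factor, Cnr1 (0.68, 0.66 centred), Mcidas (0.67, 0.74 centred), Cxcl5 (0.66, 0.71 centred) and Dlg2 (0.65, 0.52 centred). Mcidas drives the multiciliated cell fate and Cxcl5 is a neutrophil chemokine of epithelium. For Itln1 they were Lhfpl4 (r = 0.77, 0.36 centred), Sstr1 (0.75, 0.41 centred), Hipk4 (0.70, 0.38 centred), Ccl19-ps3 (0.68, 0.60 centred) and Ucn2 (0.68, 0.22 centred). Hipk4 and Ucn2 thus stood in the lists of both Itln1 and Fut2.

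Between the members themselves, over the 16 mice, r was 0.52 between Itln1 and Fut2, 0.45 between Itln1 and Spdef and 0.34 between Fut2 and Spdef. After centring, the values were -0.01 between Itln1 and Fut2, 0.07 between Itln1 and Spdef and 0.18 between Fut2 and Spdef, so that little of the likeness was left within groups.

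Each sample label carries a library number, which the sources used here do not explain, and rosoxacin mice hold the numbers 1 to 4, against 9 to 22 in dexamethasone mice, 5 to 17 in WTCPM mice and 7 to 23 in control mice. Rosoxacin and low library numbers therefore cannot be told apart. With the library number as a covariate, the log2 change of rosoxacin against WTCPM was 2.16 for Itln1, 0.64 for Fut2 and 0.47 for Spdef, and none of the 3 passed. The mice with the numbers closest to the rosoxacin libraries, WTCPM mouse 1 (number 5) and control mouse 4 (number 7), had Itln1 listed at 0 and Fut2 at 0.495 and 0.717 FPKM. Since only rosoxacin mice hold the numbers 1 to 4, neither the covariate nor these mice can separate the drug from the number.

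**Figure D4:**
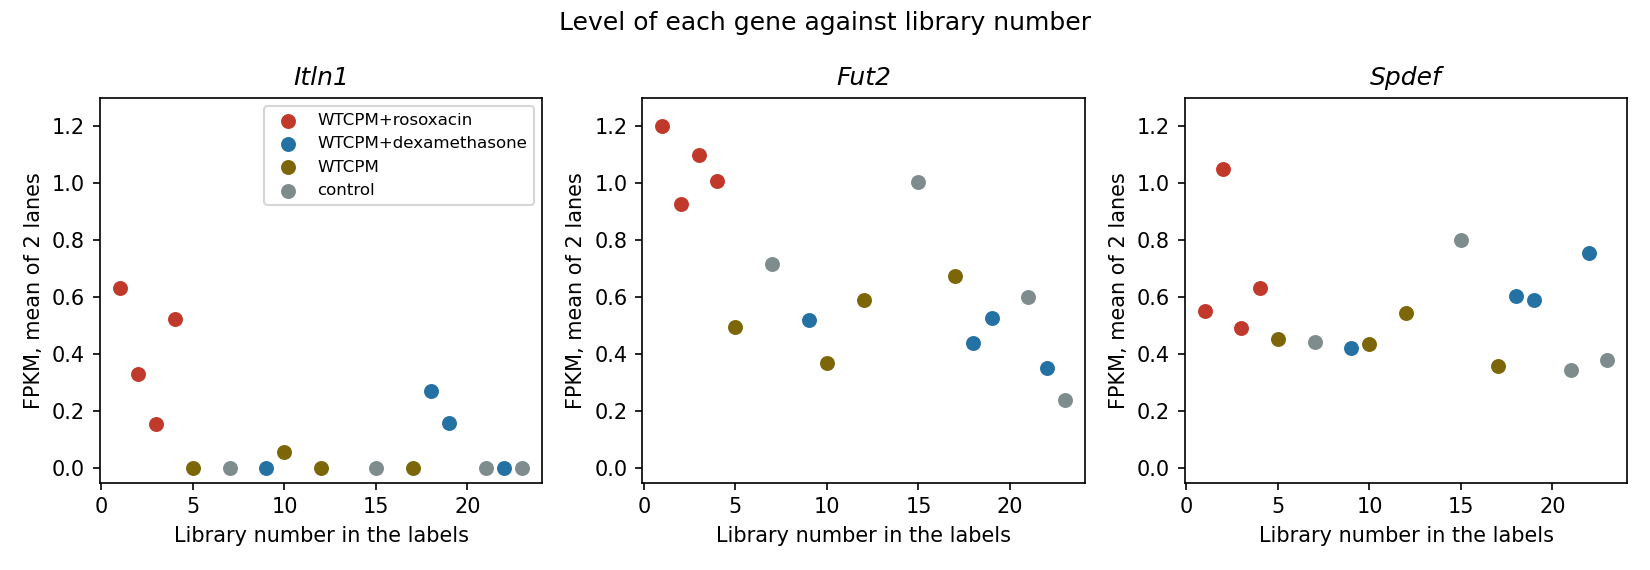
Level in FPKM of Itln1, Fut2 and Spdef in each mouse (vertical axis) against the library number in its label (horizontal axis), coloured by group. The rosoxacin mice fill the numbers 1 to 4. Itln1 is at 0 in the mice numbered 5 and 7 and reaches 0.273 in the dexamethasone mouse numbered 18.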

How the data were processed

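Lung RNA of 16 mice in 4 groups of 4 was sequenced on 2 lanes per mouse. The deposited values are FPKM per transcript for 186512 transcripts in 32 samples, 1 for each lane of a mouse, made by the authors. StringTie 2.1.5, HISAT2 2.2.1, HISAT, SAMtools 1.12, FastQC and R 4.0.4 were used on genome build mm10, per the submitters' processing notes, which give no order. Their settings and use of strand are not stated in the material at hand. Genes with an Ensembl identifier hold 0.114% of all FPKM. The other FPKM lies in 28335 assembled loci without gene names, and whether these hold further reads of Itln1, Fut2 or Spdef was not tested.

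FPKM of transcripts were summed per identifier and averaged over lanes. Symbols, positions and transcripts came from GENCODE M21 on mm10, in which 25424 identifiers found a symbol and 24950 matched with their version. Spdef matched without its version. Promoters came from RefSeq, in which Itln1 and Spdef have an entry.

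Genes with a mean FPKM of at least 0.1 were tested with limma 3.58.1 in R 4.3.3 (lmFit, contrasts.fit and eBayes, trend on). The values entered as log2(FPKM + 0.1), the 4 groups shared 1 fit, and p-values were adjusted by Benjamini-Hochberg over all 2749 genes, with a threshold of 0.05. This scale understates the change of low genes. The procedure was tested on simulated normally distributed values with known changes. These lack the levels at 0 that Itln1 has in most mice, so the simulation does not cover such genes. Depth was estimated from the most frequent value of FPKM times length within a preset low range, over 19326 genes. FPKM did not resolve into whole reads, so no count test was run.

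Itln1, Fut2 and Spdef, the 19 gene lists of 284 distinct symbols and the tests were chosen with earlier results of these data known. From each list the genes past the threshold were to be named, or else the 2 tested genes with the highest mean. For each of Itln1, Fut2 and Spdef the 5 genes with the highest Pearson correlation were named. Other list genes were named after their values were seen. Alternatives were another pseudocount, other filters, all features, quantile normalisation, TPM, median-of-ratios scaling, single lanes, the library number as a covariate, a replicate block and each mouse left out. Python 3.11.15 with matplotlib 3.10.9 drew the figures.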

Additional observations from a re-analysis of the deposited data

Results flagged for a closer look

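In 6 of 80 groups of 4 mice the highest mouse stood apart from its group by Dixon's criterion. The groups cover Itln1, Fut2, Spdef and the list genes named by rule (20 genes in all). Among normally distributed values chance alone meets the criterion in about 1 of 20 groups. Low FPKM need not follow that distribution, so the rate is only a rough guide. In 3 of the 6 the other mice are all listed at 0, where the criterion is met by construction and that rate does not apply. WTCPM mouse 4 held Itln1 at 0.0584 FPKM, while the gene was listed at 0 in the other WTCPM mice. Control mouse 1 held Fut7 at 0.620 FPKM, against 0.243 to 0.268 in the other control mice. Rosoxacin mouse 3 held Gfi1 at 0.170 FPKM, against 0.0560 to 0.0747 in the other rosoxacin mice. Rosoxacin mouse 1, the mouse with the highest Spdef, held Cxcr2, a neutrophil chemokine receptor, at 1.37 FPKM, against 0.651 to 0.737 in the other rosoxacin mice. Lep, the leptin gene of adipocytes, was at 0.0471 FPKM in WTCPM mouse 1 and listed at 0 in the other WTCPM mice. Resp18, a neuroendocrine gene, was at 0.432 FPKM in control mouse 1 and listed at 0 in the other control mice.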

How the results depend on the processing

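Over 27 alternatives, 16 of which leave out 1 mouse, 240 changes of Itln1, Fut2 and Spdef were computed. Of these, 112 were identical to the reported value, many of them because the alternative leaves a log2 change as it is, such as another filter or a mouse outside the comparison left out. The spread between mice is the residual SD of the fit in log2, at 0.61 for Itln1, 0.42 for Fut2 and 0.36 for Spdef. Most dexamethasone and dust changes are smaller than it, so a move below it, even to the other sign, does not show a stable change. Of the 128 that differed, 125 moved by less than this spread and 3 by more. For rosoxacin against WTCPM the log2 change was 0.46 for Itln1 and 0.43 for Fut2 with a pseudocount of 1, and 0.0902 for Spdef as TPM. Lane 1 alone gave no Itln1 value, because the mean fell under the filter. Itln1 passed limma's test in 14 of 27 settings with a value, the one reported included (adjusted p 0.00329 to 0.132). It did not pass with no filter (which tests 11799 genes), lane 2 alone, the library number as a covariate, the replicate block, or without rosoxacin mouse 1, 3 or 4, any 1 WTCPM mouse, or control mouse 2 or 3. The causes were not tested. Its log2 change was 1.87 to 2.38 without 1 mouse. Fut2, at 0.76 to 1.00 without 1 mouse, passed with all features in the fit (adjusted p = 0.0445) and without control mouse 1 (adjusted p = 0.0388), and its alternatives gave 0.0388 to 0.404. Spdef, at 0.27 to 0.59, passed in none. All 3 genes were chosen with these values known, so nothing is read from the settings in which they passed. The signs of Fut2 and Spdef for WTCPM against control, and of Fut2 for dexamethasone, differed between alternatives.

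The counts here are of genes with an Ensembl identifier, and the number tested differs between alternatives. For rosoxacin against WTCPM, 15 of 2749 genes passed as reported, 5 of 11799 with no filter and 260 of 3064 as TPM (3 higher, 257 lower). With all features, 128 of the same 2749 genes passed, and the unnamed loci were fitted but are not counted. Median-of-ratios scaling gave 16 of 2726 (11 higher, 5 lower) and quantile normalisation 8 of 2749 (3 higher, 5 lower). Lane 1 alone gave 2 of 2789 and the library number as a covariate 3 of 2749. When 1 mouse was left out, 2 of 2758 (without WTCPM mouse 4) to 32 of 2740 (without control mouse 1) passed. Leaving out rosoxacin mouse 1 gave 5, WTCPM mouse 2 gave 4 and WTCPM mouse 3 gave 8. The median of the genes tested in each was -0.44 as TPM, -0.00 with median-of-ratios scaling and -0.01 with quantile normalisation. As TPM, 2 list genes besides the members, Fut7 and Xcr1, passed as lower. For WTCPM against control, 0 passed as reported, 1 with a pseudocount of 1, a filter of 0.05 FPKM, all features, lane 1 alone or the replicate block, 2 with no filter or as TPM, and 0 to 1 without 1 mouse (1 without WTCPM mouse 3, control mouse 1 or control mouse 2). Of the list genes there, 0 passed as reported, and 1, Lep, as TPM, with the replicate block or without control mouse 2, so 0 to 1 without 1 mouse. For dexamethasone against WTCPM, 1 gene passed with a pseudocount of 1. With the replicate block 15 genes passed for rosoxacin (2 higher, 13 lower), and the log2 changes of Itln1, Fut2 and Spdef were 2.08, 0.89 and 0.48. Deviations of same-numbered mice from their group means correlated at -0.16 to 0.30 over 24 pairs. These values cannot settle whether the mouse numbers pair mice.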

Other observations

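Muc2, the gel-forming mucin of gut goblet cells, was looked at after its values had been seen. It averaged under 0.1 FPKM and was not tested in the fit. Muc2 was at 0.101, 0.117, 0.0611 and 0.112 FPKM in rosoxacin mice. It was at 0.0637 FPKM in dexamethasone mouse 2 and 0.0632 FPKM in control mouse 4, and listed at 0 in the other mice of these groups and in all WTCPM mice. Like Itln1 it was thus above 0 in every rosoxacin mouse and in few others. Of the 6 values, that of rosoxacin mouse 1 came from both lanes and the others from 1 lane each. With no filter its log2 change for rosoxacin against WTCPM was 0.97 (SE 0.21), which did not pass limma's test over 11799 genes (adjusted p = 0.159). Not every untested list gene ran like Muc2. Clca3a2 was above 0 in 1 rosoxacin mouse, 3 dexamethasone mice, 2 WTCPM mice and 3 control mice. Foxa3 averaged 0.0753 FPKM in rosoxacin mice, 0.0796 in dexamethasone mice, 0.0874 in WTCPM mice and 0.134 in control mice.

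Of these 11799 genes, 21 were above 0 in all 4 rosoxacin mice and in at most 1 mouse each of WTCPM and control, Itln1 and Muc2 among them. The same pattern was met by 15 genes in dexamethasone mice.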
